A study of Lymantria dispar dispar and Lymantria dispar asiatica with 30 samples.

Results

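The change in transcript levels of Asian spongy moth (ASM, Lymantria dispar) pupae between day 3 and day 5 after pupation was measured across the whole transcriptome. The comparison took every ASM library of those days, 3 female pupae on day 3 and 3 on day 5, which are 6 of the 30 libraries of the series, and it tested 19652 genes. Each library is the polyadenylated RNA of 1 whole pupa. The ASM pupae (strain label RM) came from a colony started in Mineralni in the Primorski region of Russia and were fed a diet with 0.21 g of iron phosphate per litre. European spongy moth pupae (ESM, strain label CT, a Connecticut colony, 0.13 g of iron phosphate per litre) of the same days, also 3 each, are used here only where they show how the ASM change differs. Strain, colony and diet cannot be told apart in these samples, and each strain is represented by 1 colony. Pupae of each day are different animals, so no pupa was followed over time.

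In the pupa of a moth the larval tissues are broken down while the wings, flight muscle, nervous system, ovaries and cuticle of the adult are built. Ecdysteroid hormones drive this sequence through a cascade of nuclear receptors, and the adult cuticle is secreted as successive layers of chitin and cuticular proteins whose genes are used in short waves. Since whole bodies were sequenced, a lower transcript level can mean fewer cells of a type or less RNA per cell, and these cannot be told apart.

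The deposited values are counts put through a variance-stabilising transformation (VST), and counts were recovered from them. Differences are given in VST units, day 5 minus day 3, with their standard error (SE), and levels as normalised counts, that is, reads of a gene divided by the size factor of the library. The VST unit changes in size with the level: a doubling is 0.849 units near a count of 10, 1.51 near 100 and 0.653 near 10000. The ASM libraries of these days held 4737430 to 5726924 recovered reads, within the range of 2637457 to 10836826 over all 30. A gene was called at a limma p adjusted by Benjamini and Hochberg (adjusted p) under 0.05. The labels number the pupae 1 to 3 and do not say that they came from separate rearing groups. The p-values therefore measure the spread between single animals of a group. For each gene this spread was estimated over all groups of the 30 libraries, not from the ASM pupae of days 3 and 5 alone.

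In ASM the step between the days raised 1969 genes and lowered 1580, together 3549 or 18.1% of those tested (10% rose and 8.04% fell). With only the 6 libraries in the fit the count was 2064. The day 3 and day 5 pupae did not overlap for 3352 of the 3549 called genes, or 94.4%, and over all genes tested for 33.4%. Among the rises, the ratio of mean normalised counts was at least 2 for 1398 genes and at least 10 for 479, and among the falls it was at least 2 for 957 and at least 10 for 173. Rises made up 55.5% of the calls. The median value of the day 5 libraries was 0.13 units higher than that of the day 3 libraries, and with every library set to the same median 1661 genes rose and 2014 fell, so that rises made up 45.2%. All 1580 falls and 1661 of the 1969 rises were called in both scalings. For comparison, the step from day 1 to day 3 had 859 calls (4.37%, 1.66% up and 2.71% down), that from day 5 to day 8 had 4767 (24.3%, 12.9% up and 11.4% down) and that from day 8 to day 11 had 1809 (9.21%, 3.84% up and 5.36% down), and both neighbouring steps share libraries with this one.

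**Figure D1:**
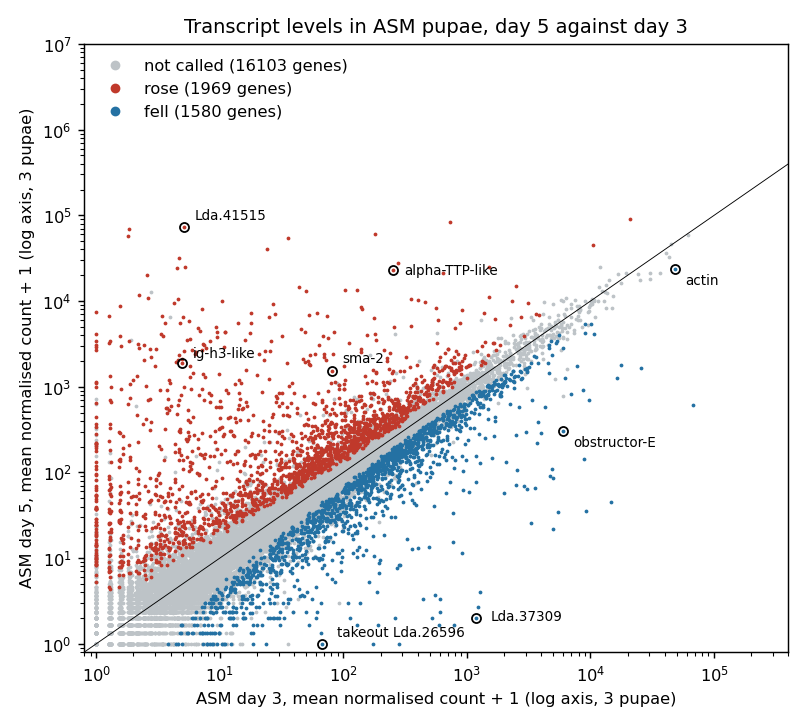
Mean normalised count + 1 of each gene in 3 ASM pupae of day 5 (vertical, log axis) against 3 of day 3 (horizontal, log axis), with genes that rose in red, that fell in blue and that were not called in grey, and the diagonal marking equal levels. The 1969 rises reach far above the diagonal at low day 3 counts, where the point of Lda.41515 lies near 72213 on day 5, and actin lies just below the diagonal at the upper end.

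On the first principal component of the 5000 genes with the highest mean (45.8% of the variance over all 30 libraries, oriented towards day 11), the day 3 pupae had scores of -66.6, -70.3 and -63.0 and the day 5 pupae -30.9, 2.4 and -15.6. All day 5 pupae lay beyond all day 3 pupae, and they were spread further apart. The root mean square difference between any pair of day 3 pupae was 0.57 to 0.73 VST units, between any pair of day 5 pupae 0.75 to 1.11, and between a day 3 and a day 5 pupa 1.42 to 1.77. The 100 genes with the most reads in a library took 27.6 to 31.5% of reads on day 3 (mean 29.9% ± 2.06, SD, n = 3) and 33.7 to 38.2% on day 5 (35.9% ± 2.27, SD, n = 3). These shares did not overlap, and the exact two-sided permutation test gave p = 0.1, the smallest value that 3 against 3 allows.

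Cuticle genes held the 2 largest rises in VST units among genes with a definition, while by the ratio of means the matrix gene Lda.39815, described further on, rose more. The 3 putative tweedle genes, of a family of insect cuticular proteins known in Drosophila for body shape, went from near background to high levels. Lda.12768 had normalised counts of 2.96, 24.8 and 11.2 in the day 3 pupae and 3103, 8173 and 5263 in the day 5 pupae. Every day 5 pupa was more than 100 times above every day 3 pupa, the mean rose from 13.0 ± 11.0 to 5513 ± 2545 (SD, n = 3 each), a ratio of 424, and the difference was 11.14 VST units (SE 1.04, adjusted p = 2.52e-08). Lda.20030 had 3.94, 33.3 and 13.6 on day 3 and 3943, 10344 and 7223 on day 5, a ratio of 423 (difference 11.11, SE 1.11, adjusted p = 8.31e-08). Pupa 2 was the highest and pupa 1 the lowest of both days for both genes, and whether reads were divided between near-identical copies was not tested. Lda.15281 had 30.6, 28.2 and 6.41 on day 3 and 1247, 2609 and 2295 on day 5, a ratio of 94.4 (difference 9.15, SE 0.88, adjusted p = 4.22e-08). On day 8 the means of these genes were still 2741 ± 1336, 3420 ± 1665 and 2416 ± 1859 (SD, n = 3), and on day 11 they were 52.8 ± 88.3, 69.4 ± 116 and 0.214 ± 0.371 against 5.69 ± 4.23, 6.68 ± 5.89 and 10.4 ± 7.78 on day 1.

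A putative pupal cuticle protein C1B (Lda.37310) started to appear unevenly. The day 3 pupae had 1.97, 0 and 8.02 and the day 5 pupae 11.1, 404 and 94.0, so that the groups were separate but pupa 1 of day 5 was barely above day 3. The difference was 4.89 (SE 1.14, adjusted p = 0.00351), and it was not called by voom on the recovered counts (adjusted p = 0.15), with only days 3 and 5 of both strains in the fit (0.0755) or with only the 6 libraries compared (0.141). The gene reached 10803 ± 9120 on day 8 and 5369 ± 3034 on day 11 (SD, n = 3). In the opposite direction, obstructor-E (Lda.16832), a chitin-binding protein that in Drosophila organises the larval cuticle, had 3703, 8161 and 5993 on day 3 and 502, 263 and 151 on day 5. It was 19.5 times lower on day 5 in the ratio of means, every day 5 pupa lay below every day 3 pupa, and the difference was -5.14 (SE 0.62, adjusted p = 1.36e-06). Its mean had been 1327 ± 646 on day 1 and was 50.1 ± 10.8 on day 8 (SD, n = 3), so among the sampled days its mean was highest on day 3.

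The Osiris genes, which encode insect membrane proteins of cuticle-secreting cells, were at the edge of detection on both days. Putative osiris 18 (Lda.35031) had 0 reads in all 3 day 3 pupae and 2.03, 9.95 and 17.6 normalised counts on day 5 (difference 1.81, SE 1.10, adjusted p = 0.296), and Lda.6827, also osiris 18, had at most 2 reads and then 2.03, 4.97 and 3.92 (adjusted p = 0.686). Osiris 20 (Lda.35510) had at most 0.986 on day 3 and 1.99 to 3.92 on day 5 (adjusted p = 0.67), and the Osiris gene Lda.35030 had 0 on day 3 and at most 2.03 on day 5 (adjusted p = 0.808). None of the 4 was called in ASM. In ESM Lda.35031 had 4.83, 3.44 and 1.58 and then 133, 2.08 and 187 (difference 3.93, SE 1.10, adjusted p = 0.0198), and the change was not called different between the strains (-2.13, adjusted p = 0.587). On day 8 their ASM means were 2559 ± 1929, 2718 ± 2311, 2392 ± 2076 and 427 ± 329 (SD, n = 3). A cuticle protein gene (Lda.23652) and both peroxisomal catalases (Lda.20862 and Lda.20867, enzymes that break down hydrogen peroxide) had no read in any of the 6 pupae, a result that leaves room for as many as 3 reads per library, and means of 3462 ± 2425, 2114 ± 2133 and 1016 ± 640 on day 8. The putative zonadhesins (Lda.8470 and Lda.27052) had 5.13 to 13.8 and 3.21 to 6.90 on day 3 and 16.2 to 21.9 and 8.10 to 11.7 on day 5, did not overlap and were not called (adjusted p = 0.511 and 0.655). Of the list of 11 cuticle and Osiris genes, 4 rose and 1 fell, that is 45.5% called against 18.1% of all genes, with a median difference of 0.55 against -0.01. The paper that reported these samples chose many of these genes on the same libraries, so the counts over lists here are no independent evidence.

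**Figure D2:**
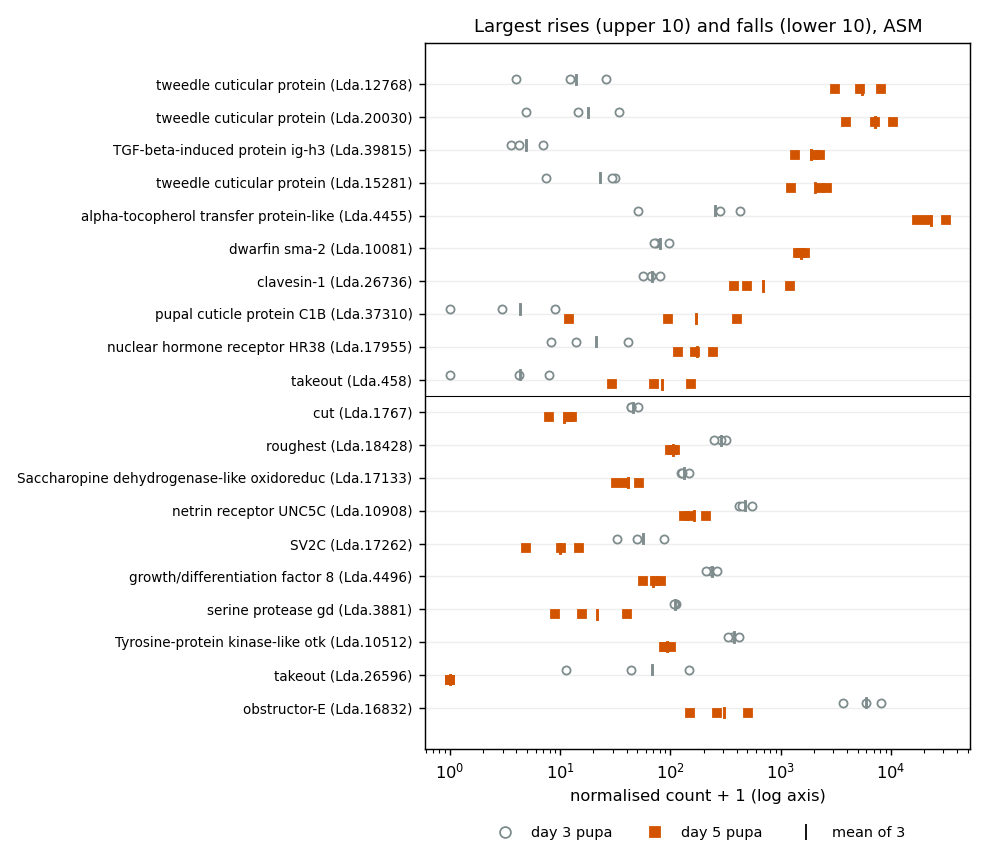
Normalised count + 1 (log axis) of the 10 genes with the largest rises (upper part) and the 10 with the largest falls (lower part) among called genes with a definition. Open circles are the 3 ASM pupae of day 3, filled squares the 3 of day 5 and short bars their means, and in each row the squares and circles are separate, as for obstructor-E with 151 to 502 on day 5 and 3703 to 8161 on day 3.

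Genes for carriers of lipids and other small ligands changed in both directions. A putative alpha-tocopherol transfer protein (Lda.4455), a member of the lipid-binding CRAL-TRIO family that in vertebrates carries vitamin E, had 49.3, 278 and 427 on day 3 and 20721, 17144 and 31401 on day 5. Every day 5 pupa stood at least an order of magnitude above every day 3 pupa, the ratio of means was 91.9, and the difference was 7.27 (SE 1.17, adjusted p = 6.94e-05). The level was transient: the means were 8.37 ± 5.85 on day 1, 50.2 ± 41.3 on day 8 and 26.1 ± 26 on day 11 (SD, n = 3). Clavesin-1 (Lda.26736), of the same protein family, had 65.1, 78.6 and 55.3 on day 3 and 1207, 496 and 373 on day 5, a ratio of 10.4 (difference 4.95, SE 0.67, adjusted p = 8.31e-06). Another gene defined as clavesin-1 (Lda.539) went the other way, from a mean of 901 to 342 (difference -2.01, SE 0.43, adjusted p = 0.0017).

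The takeout genes Lda.458 and Lda.26596, of a family of secreted small-ligand carriers that in Drosophila acts in feeding and circadian output, went opposite ways. Lda.458 had 0, 6.84 and 3.21 on day 3 and 28.4, 152 and 70.5 on day 5, a ratio of 25.0 (difference 4.35, SE 0.67, adjusted p = 4.54e-05). Lda.26596 had 146, 10.3 and 43.3 on day 3 and no read in any day 5 pupa, so that it was at least 22.3-fold lower against a limit of 3 reads per library (difference -4.34, SE 0.89, adjusted p = 0.00106), although voom on the recovered counts gave an adjusted p of 0.0767 and a fit of only the 6 libraries one of 0.0727. Its mean had been 2302 ± 2289 on day 1, and it had no read in any ASM pupa of days 8 and 11. Of the 13 genes of the carrier list 5 rose and 2 fell, 53.8% called, with a median difference of 0.36.

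Among extracellular matrix and cell adhesion genes falls outnumbered rises, and the 2 rises were larger than any fall. Falls also outnumbered rises among all 501 tested genes with a definition neither uncharacterised nor transposon-derived (49 rose, 65 fell, 22.8% called). The putative TGF-beta-induced protein ig-h3 (Lda.39815), which in vertebrates is a secreted matrix protein, had 5.92, 2.56 and 3.21 on day 3 and 2036, 1345 and 2294 on day 5. The groups were far apart, with a ratio of 486 (difference 10.91, SE 1.41, adjusted p = 4.1e-06), and the mean was 255 ± 86.8 by day 8. Protocadherin Fat 4 (Lda.19461), a giant cadherin, had 25.6, 44.4 and 62.5 on day 3 and 405, 119 and 328 on day 5 (ratio 6.43, difference 3.87, SE 0.74, adjusted p = 0.000544). Among the falls, roughest (Lda.18428), an immunoglobulin-type adhesion protein that in Drosophila sorts cells of the eye, had 317, 289 and 248 on day 3 and 98.3, 104 and 110 on day 5. Its ratio of day 3 to day 5 was 2.73 (difference -2.41, SE 0.37, adjusted p = 3.42e-05). Tensin-1 (Lda.24757), which links integrins to actin, had 51.3, 58.1 and 44.1 and then 14.2, 14.9 and 10.8, and it was 3.85 times lower (difference -2.21, SE 0.32, adjusted p = 1.56e-05). Of the 25 genes of this list 2 rose and 8 fell, 40.0% called, with a median difference of -0.77. With all libraries at the same median, 11 of them fell.

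Axon guidance and synaptic genes also had more falls than rises. The netrin receptor UNC5C (Lda.10908), which in vertebrates mediates repulsion of growing axons, had 422, 550 and 445 on day 3 and 133, 145 and 208 on day 5, 2.91 times lower (difference -2.53, SE 0.44, adjusted p = 0.000203). Latrophilin (Lda.4527), an adhesion receptor of synapses, had 331, 352 and 330 and then 171, 178 and 218 (difference -1.41, SE 0.26, adjusted p = 0.000376). Semaphorin-1A (Lda.35363), a guidance cue, had 276, 317 and 320 and then 205, 156 and 177 (difference -1.30, SE 0.34, adjusted p = 0.00863). For these 3 genes the day 5 pupae all lay below the day 3 pupae. SV2C (Lda.17262), a synaptic vesicle protein, had 31.6, 87.2 and 48.9 and then 9.12, 13.9 and 3.92, 6.22 times lower (difference -2.81, SE 0.73, adjusted p = 0.00771), and without pupa 2 of day 3 it was not called (difference -2.31, adjusted p = 0.0588), nor with only days 3 and 5 in the fit (0.0793). SV2C alone of these 4 was far higher later, at 170 ± 18.3 on day 8 and 158 ± 13.6 on day 11, against 45.8 ± 11.5 and 33.0 ± 8.02 for UNC5C (SD, n = 3). Off-track kinase (otk, Lda.10512), on no list, is a receptor-like protein of Wnt signalling and axon guidance in Drosophila. It had 364, 421 and 333 and then 99.3, 85.6 and 89.1 (difference -3.32, SE 0.42, adjusted p = 3.12e-06). In the neuronal list 2 of 23 tested genes rose and 6 fell, 34.8% called, with a median of -0.18. The 2 rises were a gene for SV2B, another synaptic vesicle glycoprotein, and the plasma membrane calcium ATPase 2. The SV2B gene went from a mean of 52.7 to 148 (difference 2.07, SE 0.56, adjusted p = 0.0103). A further SV2B gene had means of 56.6 and then 120 and was not called (difference 1.51, adjusted p = 0.0703). The calcium ATPase went from a mean of 1320 to 3000 (difference 1.04, adjusted p = 0.0119).

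Nuclear receptors and patterning factors were divided. The receptor HR38 (Lda.17955), which in Drosophila takes part in the ecdysteroid response, had 40.4, 12.8 and 7.22 on day 3 and 115, 243 and 166 on day 5. All day 5 pupae were above all day 3 pupae, with a ratio of 8.68 (difference 4.42, SE 0.78, adjusted p = 0.000205). The course had a dip, since the mean was 510 ± 242 (SD, n = 3) on day 1 and 20.2 ± 17.8 on day 3, and it fell again after its day 5 level of 175 ± 64 to 12.8 ± 7.5 on day 8. Gooseberry-neuro (Lda.36265), a paired-box factor of the nervous system in Drosophila, had 16.8, 12 and 32.1 and then 69.9, 123 and 94.0 (ratio 4.72, difference 2.87, SE 0.49, adjusted p = 0.000142), and it stood at 286 ± 74.6 and 396 ± 73.7 on days 8 and 11.

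The homeodomain factor cut (Lda.1767), known in Drosophila from sense organs and the wing margin, had 50.3, 42.7 and 42.5 on day 3 and 11.1, 6.96 and 11.7 on day 5, 4.54 times lower (difference -2.38, SE 0.38, adjusted p = 5.74e-05). Winged eye (Lda.13279), whose overexpression in Drosophila turns eye into wing tissue, had 556, 532 and 455 and then 286, 227 and 345 (difference -1.32, SE 0.27, adjusted p = 0.00106). Neither gene had overlapping days. The ecdysone-inducible receptor E75 (Lda.21602), singled out after its values had been seen, had 2017, 2591 and 2034 on day 3 and 7651, 2688 and 5487 on day 5. Pupa 2 of day 5 was hardly above day 3 while the others were clearly higher, with a difference of 0.95 (SE 0.30, adjusted p = 0.0258). The call was lost with all libraries at the same median (adjusted p = 0.0697), with only days 3 and 5 or only the 6 libraries in the fit (0.0751 and 0.126) and without pupa 1 or 3 of day 3 (0.0873 and 0.0728) or pupa 1 or 3 of day 5 (0.148 and 0.0911). Of the 21 genes of this list 3 rose and 6 fell, 42.9% called, with a median of -0.80, and 2 rose and 8 fell at the same median.

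Genes of the Dpp, TGF-beta and FGF pathways, which pattern wings and other appendages in Drosophila, had 1 rise and 2 falls among 7 (42.9% called, median -0.59). The signal transducer dwarfin sma-2 (Lda.10081), a Smad protein known from Caenorhabditis elegans, had 73.0, 95.7 and 69.7 on day 3 and 1660, 1441 and 1520 on day 5. The pupae within each day were close and the days were separate, with a ratio of 19.4 (difference 6.31, SE 0.89, adjusted p = 1.31e-05). The mean was 897 ± 567 on day 1 and 201 ± 36.6 on day 8, so day 3 was a low between higher levels. The ligand growth/differentiation factor 8 (Lda.4496), myostatin in vertebrates, had 233, 207 and 266 and then 70.9, 55.7 and 80.3, 3.41 times lower (difference -2.82, SE 0.51, adjusted p = 0.000295), and was near 3 counts on days 8 and 11. Twisted gastrulation (Lda.23479), a secreted modulator of Dpp, had 318, 301 and 329 and then 176, 160 and 158 (difference -1.59, SE 0.31, adjusted p = 0.000584). Both were lower in every day 5 pupa.

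Immune recognition and protease genes had 1 rise and 3 falls among 12 (33.3% called, median -0.83). The serine protease gd (Lda.3881), which in Drosophila acts in the cascade that sets the dorsoventral axis, had 112, 109 and 107 on day 3 and 39.5, 7.96 and 14.7 on day 5, 5.29 times lower (difference -3.31, SE 0.45, adjusted p = 6.88e-06). The LITAF homolog (Lda.30858), named after a factor induced by bacterial lipopolysaccharide, had 495, 433 and 396 and then 253, 129 and 184 (difference -2.06, SE 0.40, adjusted p = 0.00056). A saccharopine dehydrogenase-like oxidoreductase (Lda.17133), on no list, had 123, 145 and 127 and then 37.5, 50.7 and 31.3 (difference -2.42, SE 0.51, adjusted p = 0.00141).

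In energy and sugar metabolism 4 of 19 genes rose and 2 fell (31.6% called, median 0.63), but 2 rose and 2 fell at the same median or by voom. Isocitrate dehydrogenase 3 beta (Lda.7112), of the citric acid cycle, had 412, 609 and 385 and then 731, 1299 and 932 (ratio 2.11, difference 1.43, SE 0.33, adjusted p = 0.00322, and 0.0658 with only the 6 libraries compared). In the detoxification and oxidative stress list 3 of 17 tested genes rose and none fell (17.6% called, median 0.43), all enzymes that modify foreign compounds and hormones. Of these, UDP-glucuronosyltransferase 2B1 (Lda.18407) had 111, 87.2 and 143 and then 208, 208 and 208 (difference 1.50, SE 0.30, adjusted p = 0.00091), and cytochrome P450 6B4 (Lda.6655) had 9.86, 5.13 and 8.02 and then 16.2, 27.9 and 27.4 (difference 1.55, SE 0.39, adjusted p = 0.00612). Both were higher still on days 8 and 11, at 418 ± 24.2 and 577 ± 93.8 for the first and 64.5 ± 20 and 104 ± 17.1 for the second (SD, n = 3).

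DNA replication, repair and division genes had 3 falls and no rise among 16 (18.8% called, median 0.07, which was -0.07 with all libraries at the same median). Cyclin-dependent kinase 2 (Lda.42), which acts at the start of DNA synthesis, had 289, 241 and 210 and then 143, 167 and 140 (difference -1.21, SE 0.34, adjusted p = 0.0131), and the call was lost without pupa 1 of day 3 (adjusted p = 0.0811) or pupa 3 of day 5 (0.0519). In the ribosome list 1 of 13 rose and 1 fell (15.4% called, median -0.16), and UTP14 (Lda.761), a factor of ribosomal RNA processing, had 140, 132 and 170 and then 204, 307 and 249 (difference 1.31, SE 0.26, adjusted p = 0.000828, and 0.0568 with only the 6 libraries compared). Outspread (Lda.25916), named after a wing-posture mutant of Drosophila, had 527, 682 and 568 and then 1893, 1951 and 2061. It was 3.32 times higher on day 5 (difference 2.11, SE 0.17, adjusted p = 3.36e-09) and back at 567 ± 32.4 on day 8. Among cilia and centrosome genes 1 of 13 rose (7.69%, median 0.49), with 2 rises and 1 fall by voom and 1 of each at the same median.

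Of 4 genes for heat shock protein 68, a stress-induced chaperone, 1 rose (25.0%, median 1.51). That gene, Lda.14607, had 20.7, 32.5 and 20.8 on day 3 and 70.9, 166 and 104 on day 5 (difference 2.81, SE 0.59, adjusted p = 0.00141). None of 3 storage and iron proteins was called, the nearest being a ferritin subunit (Lda.14052), the iron store of cells, with 4729, 3774 and 3892 and then 2977, 2955 and 2955 (difference -0.40, SE 0.14, adjusted p = 0.0597), which was called as lower at the same median and by voom (adjusted p = 0.0133 and 0.0424).

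Among the 4 qPCR reference genes, actin (Lda.11070) was called. It had 33401, 64127 and 46443 on day 3 and 25573, 25198 and 20210 on day 5, without overlap, and the mean fell from 47991 ± 15421 to 23660 ± 2994 (SD, n = 3), a ratio of day 3 to day 5 of 2.03. The difference was -0.53 (SE 0.15, adjusted p = 0.0139), on a scale where a doubling is 0.653 units near a count of 10000. Without pupa 2 of day 3 the adjusted p was 0.104 and without pupa 3 of day 5 it was 0.0679, and it was 0.0626 with only days 3 and 5 in the fit, 0.107 with only the 6 libraries and 0.0625 without the variance trend. GAPDH (Lda.9151), Ef1g (Lda.33417) and gamma-tubulin (Lda.39600) had differences of 0.08, 0.01 and -0.46 with overlapping days (adjusted p = 0.922, 0.996 and 0.356).

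**Figure D3:**
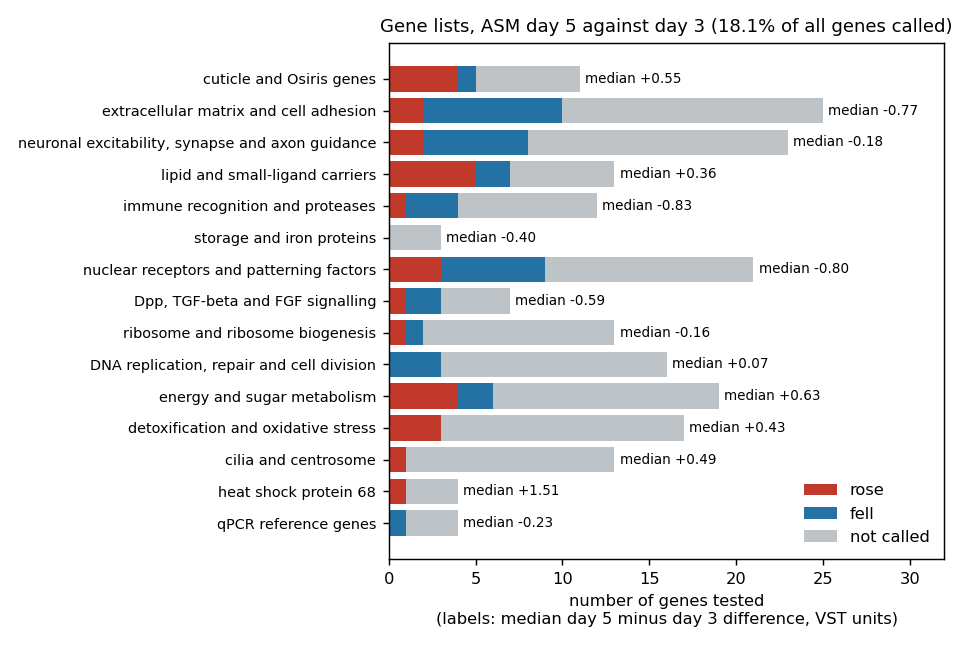
Number of genes that rose (red), fell (blue) or were not called (grey) from day 3 to day 5 in ASM in each gene list described, with the median difference in VST units at the end of each bar. The called part is 10 of 25 genes in extracellular matrix and cell adhesion and 3 of 16 in DNA replication, against 18.1% of all genes tested.

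The most extreme changes lay in genes without a definition in the tables used. Most genes lack one, since 616 of the 19654 genes have a definition. A total of 122 called genes, none with a definition, went from at most 3 reads in each day 3 pupa to at least 10 normalised counts in each day 5 pupa. Of these, 94 also had at most 3 reads in each day 1 pupa, 54 had a day 8 mean under 10 and 88 a day 11 mean under 10. In the opposite direction 44 genes, of which 43 were called and 2 had a definition, had at least 10 in each day 3 pupa and at most 3 reads in each day 5 pupa. Of these 44, 39 had a mean of 10 or more on day 1, and 28 had means under 10 on both day 8 and day 11. Both sets were picked by their values on days 3 and 5. Of all 19654 genes, 12917 to 13276 had at least 10 in a single ASM pupa of day 1. The range was 13029 to 13180 on day 8 and 12718 to 12776 on day 11. The share over all genes was not computed for group means or for the limit of 3 reads. A group of 15 genes had under 100 normalised counts in every day 3 pupa and a mean of at least 10000 on day 5. Together they took 0.00361 to 0.00473% of the reads of a day 3 pupa and 5.15%, 12.3% and 8.05% of those of day 5 pupae 1, 2 and 3.

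Among them were the 2 undefined genes with the largest rises. Lda.38572 had 0, 1 and 2 reads in the day 3 pupae and 4656, 152112 and 14486 normalised counts in the day 5 pupae (difference 14.19, SE 1.54, adjusted p = 2.7e-07). Lda.41515 had 9.86, 0 and 2.41 on day 3 and 6864, 189784 and 19991 on day 5 (difference 13.88, SE 0.90, adjusted p = 3.71e-11). For both, pupa 2 was about 10 times above pupa 3 and further above pupa 1. Lda.23044, chosen after its values had been seen, had the reverse order on day 5: no read or 2.56 counts on day 3, and 117543, 631 and 90891 in day 5 pupae 1, 2 and 3 (difference 13.64, SE 1.65, adjusted p = 1.58e-06, and 0.155 by voom). Such spread was common on day 5. Genes with at least 100 normalised counts in 1 pupa and 10 times less in another numbered 39 on day 3 and 315 on day 5. Among these 315, pupa 3 was the lowest for 16, pupa 1 for 141 and pupa 2 for 158, and 193 of them were called rises. Genes entered the 315 by a count of at least 100 in a day 5 pupa, a condition that favours rises. The 193 is therefore not independent of that selection. The share of rises among other genes as high on day 5 was not computed. The largest undefined falls were more even. Lda.37309 had 1795, 1050 and 718 on day 3 and 3, 0 and 0 reads on day 5 (difference -10.81, SE 0.87, adjusted p = 2.09e-09), and Lda.9746 had 1902, 1070 and 686 and then 3.04, 1.99 and 0, a ratio of day 3 to day 5 of 728 (difference -10.60, SE 0.90, adjusted p = 5.18e-09). Their day 1 means were 3874 ± 2202 and 3921 ± 2138 (SD, n = 3), and whether the pair shares reads between near-identical copies was not tested.

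**Figure D4:**
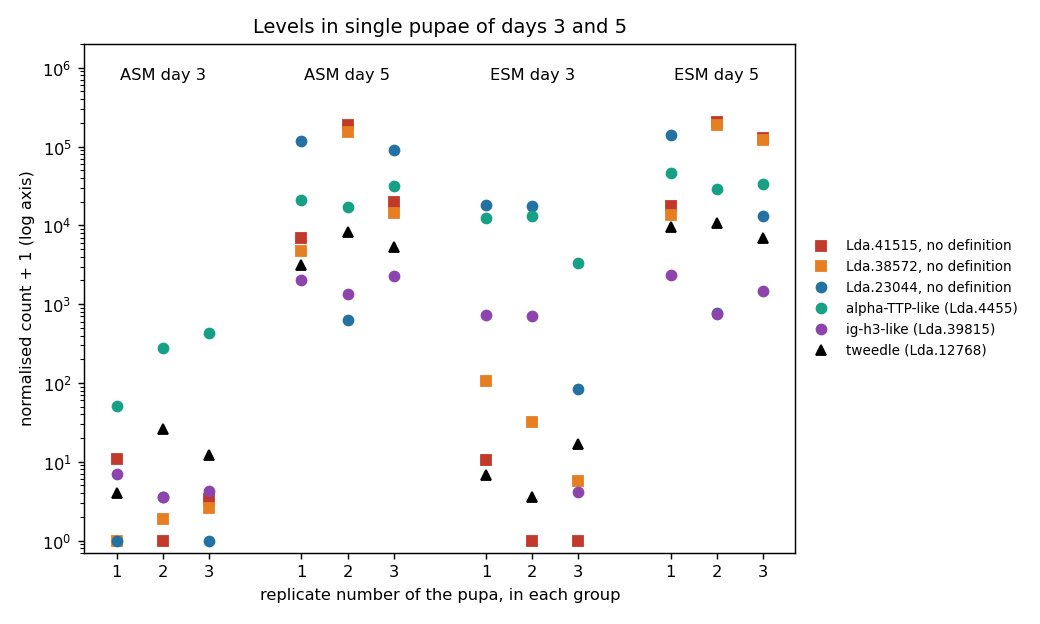
Normalised count + 1 (log axis) of 6 genes in each of the 12 pupae of days 3 and 5, by strain, day and replicate number, which has no order. In ASM on day 5 pupa 2 has 189784 of Lda.41515 and 631 of Lda.23044 while pupa 1 has 6864 and 117543, and in ESM on day 3 pupa 3 is below pupae 1 and 2 for Lda.23044, Lda.39815 and Lda.4455.

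Days 1 and 11 use other libraries than this step and so show where the changed genes stood at the ends of the sampled period. Of the 1969 genes that rose from day 3 to day 5, 741 (37.6%) were higher on day 11 than on day 1 and 141 (7.16%) were lower, while over all genes tested 19.6% were higher and 19.9% lower. The other 1087 rises were not called between day 1 and day 11. Of the 1580 genes that fell, 1043 (66%) were lower on day 11 than on day 1, 51 (3.23%) were higher and 486 were not called. The difference between these shares was not tested. All comparisons, also that in ESM, use the same estimate of spread for each gene, so their calls are not independent. Tweedle Lda.12768, with a difference of 1.42 between day 11 and day 1 (adjusted p = 0.299), alpha-tocopherol transfer protein Lda.4455 (1.00, adjusted p = 0.533) and ig-h3 Lda.39815 (1.33, adjusted p = 0.489) were among the rises not called there. Pupal cuticle protein C1B Lda.37310 was higher on day 11 (12.42, adjusted p = 4.67e-09), and HR38 Lda.17955 was lower (-7.70, adjusted p = 2.03e-08). Among the falls, UNC5C Lda.10908 (-5.38, adjusted p = 6.7e-10), growth/differentiation factor 8 Lda.4496 (-8.84, adjusted p = 6.07e-13) and takeout Lda.26596 (-11.51, adjusted p = 2.02e-10) were lower on day 11, and SV2C Lda.17262 was higher (5.26, adjusted p = 3.01e-06).

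The same step in ESM pupae, fitted with the same model but with other libraries, had 2196 calls (11.2%), 1248 up (6.35%) and 948 down (4.82%), from libraries of 2637457 to 4943332 reads, and 1452 calls without pupa 2 of ESM day 5. Over all genes the changes of the strains had a Pearson correlation of 0.697 and a Spearman correlation of 0.452 across genes, which are not independent and share the libraries of each strain. Of the 1969 ASM rises 785 were called as rises and 16 as falls in ESM, and of the 1580 ASM falls 420 were called as falls and 2 as rises. The shared calls in the same direction were 34.0% of the ASM calls and 54.9% of the ESM calls, and 85.2% of ASM calls had the same sign in ESM against 63.4% of all genes. The tweedle gene Lda.12768 went from 5.80, 2.58 and 15.8 to 9553, 10587 and 6898 in ESM, obstructor-E (Lda.16832) from 2593, 3793 and 6172 to 227, 268 and 156, and takeout Lda.458 from 1.93, 0 and 9.49 to 58.5, 154 and 65.5. For these 3 the difference between the strains in the change was not called (adjusted p = 0.818, 0.974 and 0.927), with estimates of -1.09, 0.14 and -0.36 VST units. Of the 122 ASM genes that came up from at most 3 reads, 104 had at least 10 in every ESM day 5 pupa, but 37 met both conditions in ESM. Of all 19654 genes, 13052 to 13204 had at least 10 in a single ESM day 5 pupa. The share with at least 10 in every pupa was not computed over all genes.

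The change differed between the strains for 276 genes (1.40% of those tested), more upward in ASM for 182 (0.926%) and more downward for 94 (0.478%). Both strains were called in opposite directions for 18. The count was sensitive to single pupae: 784 without pupa 3 of ESM day 3, 495 without pupa 2 of ASM day 5, 111 without pupa 1 of ASM day 3, 151 without pupa 2 of ASM day 3, 115 and 125 without pupa 1 or 2 of ESM day 3, 133 without pupa 2 of ESM day 5, and 138 and 180 without pupa 1 or 3 of ASM day 5. Voom called 96. Of the 182 genes, pupa 3 was the lowest of the ESM day 3 pupae for 150, and over all genes tested for 37.6%. The ESM day 3 values entered the test that selected the 182, so the 150 is not independent of that selection. The score of ESM day 3 pupa 3 on the first component was -63.7, within the range of the ASM day 3 pupae, while ESM day 3 pupae 1 and 2 had -44.8 and -51.7. Among ESM pupae of day 5 the scores were -20.6, 4.1 and -2.6.

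Clavesin-1 (Lda.26736) had the smallest adjusted p of the 8 genes with a usable definition among the 276. In ESM it had 1462, 1823 and 312 on day 3 and 369, 560 and 583 on day 5, against 65.1, 78.6 and 55.3 and then 1207, 496 and 373 in ASM. All ESM day 3 pupae were above all ASM day 3 pupae, and the day 5 pupae of the strains overlapped. The change was 6.07 VST units more upward in ASM (SE 0.95, adjusted p = 0.000786). Fat 4 (Lda.19461) had 572, 521 and 209 and then 387, 123 and 150 in ESM, and its change was 5.54 more upward in ASM (SE 1.05, adjusted p = 0.00573). Trapped in endoderm-1 (Lda.21711), a receptor that guides germ cells in Drosophila, had 51.3, 78.6 and 91.4 and then 278, 152 and 162 in ASM, and 968, 779 and 187 and then 218, 106 and 183 in ESM. It rose in ASM (difference 2.19, SE 0.70, adjusted p = 0.031, and 0.132, 0.0646 and 0.141 without pupa 1 of day 3, pupa 2 of day 3 or pupa 1 of day 5, 0.13 with only days 3 and 5 in the fit, 0.0501 with only the 6 libraries and 0.0597 by voom) and fell in ESM (difference -2.57, adjusted p = 0.0171), a difference of 4.76 (SE 1.00, adjusted p = 0.0136). That call was lost (adjusted p = 0.0529 to 0.0667) without pupa 1 of either day in ASM, pupa 1 or 2 of ESM day 3, or pupa 2 of ESM day 5.

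The trehalose transporter Tret1 (Lda.25670), which moves the main blood sugar of insects, was at 30.6, 37.6 and 27.3 and then 66.9, 26.9 and 32.3 in ASM (difference 0.37, adjusted p = 0.791). In ESM it went from 270, 267 and 85.5 to 69.7, 18.7 and 27.1 (difference -3.54, adjusted p = 0.000943), and the changes differed by 3.91 (SE 0.97, adjusted p = 0.0415). This call was kept without pupa 3 of ESM day 3, pupa 1 of ESM day 5 or pupa 2 of ASM day 5, and it was lost without any of the other 9 pupae (adjusted p = 0.0598 to 0.151). The immunoglobulin-type zig-8 (Lda.30693) had 11.8, 11.1 and 12 and then 3.04, 0.995 and 0.979 in ASM (difference -1.59, SE 0.27, adjusted p = 0.000136), and at most 4.5 in any ESM pupa of these days (difference in the change -1.58, SE 0.38, adjusted p = 0.0375). It too was lost without any of 9 of the pupae (adjusted p = 0.0506 to 0.0918) and kept without pupa 1 of ESM day 3, pupa 2 of ESM day 5 or pupa 1 of ASM day 5. For the ig-h3 gene Lda.39815 the ESM day 3 pupae had 729, 710 and 3.16, of which pupa 3 lay within the ASM range of that day (difference in the change 6.66, adjusted p = 0.098). For Lda.4455 they had 12472, 13262 and 3288, all above the ASM pupae (5.95, adjusted p = 0.0716). Both genes were at 753 or more and 28862 or more in every ESM day 5 pupa.

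**Figure D5:**
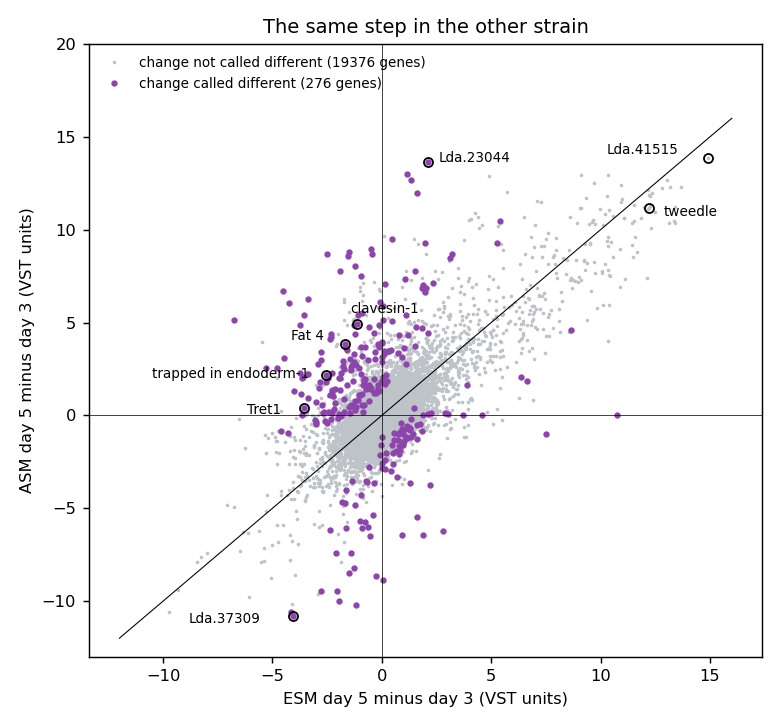
Difference from day 3 to day 5 of each gene in ASM (vertical, VST units) against that in ESM (horizontal, VST units), with the 276 genes whose change was called different between the strains in purple and the diagonal marking equal changes. Tweedle Lda.12768 and Lda.41515 lie near the diagonal, while clavesin-1 (4.95 in ASM and -1.13 in ESM) and Lda.23044 (13.64 and 2.09) lie above it.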

How the data were processed

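The 30 pupae of 2 strains and 5 days gave 1 library each. Per the labels and the methods, the authors trimmed the reads (Trimmomatic 0.36, after FastQC 0.11.5), aligned them to a draft ASM genome, filtered iflavirus reads, merged gene models (StringTie), counted reads per gene (featureCounts 2.0.0), and transformed the counts with the VST of DESeq2 1.28.1 under R 4.0.2. The deposited values are on a log2-like scale. The table holds 19654 genes, and its lowest value, -0.52, stands for 0 reads.

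Counts were recovered from the curve that all 30 libraries share. Within a library, 99.38 to 99.77% of values lay within 0.05 of a whole number, and all of those under 1000 did. Recovery and fits were tested on simulated data. Limits of detection reflect counting error alone.

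The model (limma 3.58.1, R 4.3.3) took the deposited values of all 30 libraries, with 10 group means, a variance trend and Benjamini-Hochberg adjustment over the 19652 genes that exceeded the lowest value in 3 or more libraries. Shares of reads were compared by exact permutation. Figures and summaries used Python (3.11.15) and the packages pandas (2.3.3), numpy (2.4.6), scipy (1.17.1) and matplotlib (3.10.9).

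Gene definitions (501 usable among genes tested, of which 22.8% were called, 49 up and 65 down) come from the study's own tables of candidate genes. These hold candidates of its genome-wide association and inbred line analyses as well as of its expression analysis. The comparison, members and 16 gene lists were chosen with earlier results of these data known, and 1 list is not reported here. The genes named are the 10 defined and 2 undefined genes with the largest rises and falls among called genes without overlap, up to 4 genes per list by adjusted p, 5 defined interaction genes, and those the paper names. The SV2B genes and the calcium ATPase were added for contrast and are not in the counts of named genes. Alternatives were other sets of libraries, filters, scalings, pseudocounts of 1 and 10, voom, a replicate block and leaving out each pupa.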

Additional observations from a re-analysis of the deposited data

Results flagged for a closer look

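The change from day 3 to day 5 differed between the strains, by the interaction term of limma, for 8 of the genes named. The values are the ASM change minus the ESM change in VST units. Clavesin-1 (Lda.26736) had 6.07 (SE 0.95, adjusted p = 0.000786). Fat 4 (Lda.19461) had 5.54 (SE 1.05, adjusted p = 0.00573). Trapped in endoderm-1 (Lda.21711) had 4.76 (SE 1.00, adjusted p = 0.0136) and Tret1 (Lda.25670) 3.91 (SE 0.97, adjusted p = 0.0415). Zig-8 (Lda.30693) had -1.58 (SE 0.38, adjusted p = 0.0375).

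Undefined genes were also among them. Lda.37309 had -6.76 (SE 1.23, adjusted p = 0.00401), since ESM day 3 pupae were at 11.6, 37 and 312 against 1795, 1050 and 718 in ASM. Lda.9746 had -6.42 (adjusted p = 0.00893), with ESM day 3 pupae at 9.66, 46.5 and 337. Lda.23044 had 11.55 (SE 2.33, adjusted p = 0.00997), with ESM day 3 pupae at 17965, 17441 and 83.9 and ESM day 5 pupae at 142037, 766 and 13174. When any 1 of the 12 pupae was left out, Tret1 and zig-8 each lost the call in 9 cases (adjusted p up to 0.151 and 0.0918) and trapped in endoderm-1 in 5 (0.0529 to 0.0667), while the other 5 genes kept it. With only the 12 libraries of days 3 and 5 in the fit none of the 8 was called, and the adjusted p ranged from 0.0935 for clavesin-1 to 0.242 for Lda.23044. By voom, Lda.37309, Lda.9746, Lda.23044, zig-8 and Tret1 were not called (adjusted p = 0.204, 0.267, 0.48, 0.172 and 0.0997).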

How the results depend on the processing

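The ASM count of 3549 was 2064 with only the 6 libraries compared and 2549 to 3191 when 1 pupa was left out. The ESM count of 2196 was 1350 with only days 3 and 5 of both strains, 618 with its 6 libraries and 1450 by voom, and 1452 to 2305 when 1 pupa was left out. The interaction count of 276 was 33 with only days 3 and 5, 138 among genes above the lowest value in all libraries, 96 by voom, 178 with log2 of the normalised count + 1, and 111 to 784 when 1 pupa was left out. The count between days 1 and 11 (7767) was 6858 to 7177 when 1 pupa was left out. The causes were not tested, other than that fewer libraries or genes enter some fits.

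With the replicate number as a block the counts were 3553, 2253, 267 and 7771. The numbers share no stated origin, and day 3 and day 5 pupae of the same number deviated together with r = -0.05, -0.04 and 0.09 (pupae 1 to 3), so they pair no samples.

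Of the 44 named genes called in ASM, 34 passed in each alternative in which they were tested and none changed sign. Values of uncalled genes did: at the same median GAPDH (Lda.9151) was -0.05 and Ef1g (Lda.33417) -0.13, and when 1 pupa was left out GAPDH ranged from -0.32 to 0.47, Ef1g from -0.08 to 0.07 and Tret1 (Lda.25670) from -0.12 to 0.69. With 3 pupae a day, of single colonies, genes under about 10 counts could show only large changes.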
